A study of Mus musculus with 24 samples.

Results

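A set of genes linked to the breakdown of NAD and the removal of its product nicotinamide is described here in epididymal white adipose tissue. The mice were kept with or without a dietary source of vitamin B3. The set holds 8 genes, chosen as every array probe whose accession maps to Cd38, Bst1, Sarm1, Art3, Nt5e, Slc12a8, Nnmt or Aox1. They have 11 of the 55681 probes and 8 of the 20660 named genes of the array. For 7 of the 8 genes at least 1 probe was kept for testing, which meant a signal clearly over local background, by the scanner software's flag, in 6 or more of the 12 mice fed one of the diets; 9 of the 11 probes met this, as did 24769 probes in all. Sarm1 had no kept probe.

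All 24 animals were C57BL/6JRcc male mice, individually housed, 8 or 9 weeks old at the start and 28 or 29 weeks old at the end. Every mouse ate a semi-synthetic diet with 40% of its energy from fat and 0.115% tryptophan, an amount the submitters call low but sufficient, so that some NAD could still be made from tryptophan in both groups. After a run-in in which all mice received NR (nicotinamide riboside, one of the vitamin B3 forms), 12 mice stayed at 30 mg NR per kg diet (Ctrl NR) and 12 received 0 mg NR per kg (No NR) for 18 weeks. The comparison asks what withdrawal of vitamin B3 does to the transcripts of white fat. All were given 0.8 g of diet at the onset of darkness so that they had fasted by its end, and were refed 1.8 g before they were killed. On each array the RNA of 1 mouse, labelled with Cy5, was set against a common Cy3 pool of fat RNA that also held other diets and 4 females. Values are therefore log2 ratios of a mouse to that pool, where 0 means equal to the pool and 1 means double its level. For dim probes an offset of 50, added to both signals, draws the ratios towards 0, so that they understate differences.

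NAD carries electrons in fuel oxidation and is also consumed as a substrate, which releases nicotinamide. CD38 and its paralog BST1 (CD157) cleave NAD at the cell surface and can form the calcium messenger cyclic ADP-ribose, and SARM1 cleaves it inside cells, best known from degenerating axons. NT5E (CD73) acts outside the cell, where it dephosphorylates AMP to adenosine and can turn nicotinamide mononucleotide (NMN) into NR, and SLC12A8 has been described as an NMN transporter, a role that is debated. Nicotinamide is either salvaged to NAD or methylated by NNMT, and AOX1 oxidises the methylated product to pyridones that are excreted. In fat, CD38 and CD157 are known mainly from immune and stromal cells, and NNMT is abundant in adipocytes.

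None of the 9 kept probes passed the test between the diets (limma, Benjamini-Hochberg adjusted p over all 24769 kept probes, threshold 0.05), and adjusted p ran from 0.352 for Aox1 to 0.985 for Cd38. The share called over the whole array was 0%. By the direction of the mean difference 5 of the 9 probes were higher in No NR mice, against 47.1% of all kept probes. With 1 probe per gene, 3 of the 7 genes lay higher without NR and 4 lay lower, and their median log2 fold change was -0.01, beside -0.01 for all 21051 features with 1 probe each. At an unadjusted p under 0.05, 1 of the 9 probes, that of Aox1, was counted, where 14% of all kept probes were (6.63% above and 7.42% below the Ctrl NR mean). That share depended on the normalization: with the arrays centred on their median in place of loess it was 1.22%. The members differed more in their spread from mouse to mouse. In bulk tissue, fewer cells of a type and less RNA per cell cannot be told apart.

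**Figure D1:**
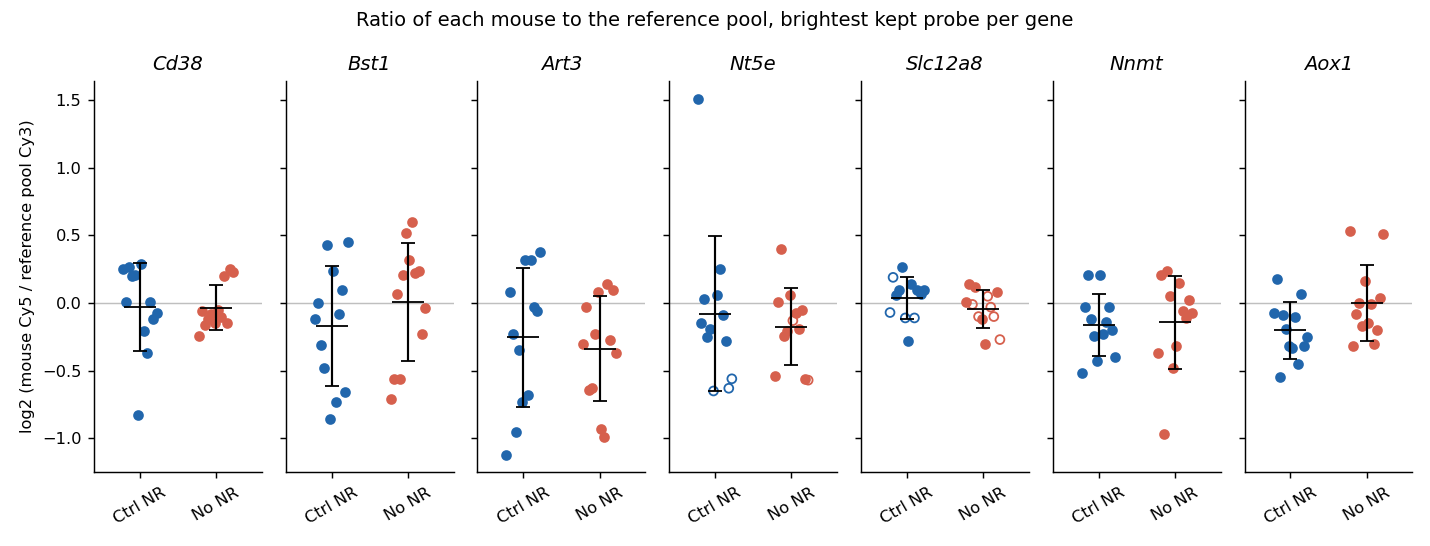
The plot shows the log2 ratio of each mouse to the reference pool (vertical axis) for the brightest kept probe of 7 genes, by diet, with open circles for arrays on which the probe was not well above background and bars for the mean ± SD of 12 mice. The diets overlap for each of the 7 genes, and Bst1, Art3 and Nt5e span the widest range, with 1 Ctrl NR mouse at 1.51 for Nt5e.

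The arrays had 34.5% to 50.7% of spots well above background. They lay on 5 slides, each of which held 2 to 4 Ctrl NR and 1 to 3 No NR mice. Differences within a slide therefore rest on few mice. All 18 adipocyte markers of the list used were measured, against 4 of the 12 epididymis and testis markers on the array. Of 21 macrophage markers, 20 had a higher mean without NR (median log2 fold change 0.25), where 47.1% of all kept probes did. The markers of a list were measured in the same mice, so counts of direction are not counts of separate observations. Of these, 3 (14.3%) were at an unadjusted limma p under 0.05, where 14% of all probes were, and 0 passed the adjusted threshold. The mean was lower without NR for 13 of 18 adipocyte markers (median -0.12), 13 of 16 endothelial markers (median -0.15, 5 at an unadjusted limma p under 0.05) and 11 of 11 mesothelial markers (median -0.17). It was higher for 13 of 15 stromal progenitor markers (median 0.16), and 0 markers of these 4 lists passed the limma adjusted threshold. In the further lists the mean was lower for 4 of 4 B cell markers (median -0.39) and 4 of 4 epididymis and testis markers (-0.37). It was also lower for 5 of 5 erythrocyte (-0.18), 8 of 10 smooth muscle and pericyte (-0.12) and 5 of 7 Schwann cell and neuron markers (-0.07). It was higher for 2 of 3 neutrophil (0.14) and 6 of 11 T and NK cell markers (0.03), and 0 of all these passed. Their part in the members' diet differences was not tested. The macrophage list mean entered 1 fit as a covariate, chosen after seeing the data. That mean was measured on the same arrays after the diets, so the fit cannot show its part either. The mean log2 ratio of the macrophage list, centred per gene, ran from -1.32 to 0.91 in Ctrl NR and from -0.75 to 0.86 in No NR mice. An unnamed probe, A_55_P2138100, lay above 0 only in Ctrl NR mice. Over the 24 mice none of the members passed a test of correlation with it or with the share of spots above background. Its level differed by diet, so that such a correlation mixes the diets. By size, the largest Pearson r with this probe were -0.421 for Aox1 and 0.419 for Slc12a8 (permutation test, adjusted p = 0.136 for both). For Nnmt r was -0.313 (permutation test, adjusted p = 0.304). With diet means subtracted it was -0.398 (permutation test, adjusted p = 0.0612). Among mice fed NR it was -0.766 and among those without 0.0484, values that were not tested. Other members also had sizable untested values within 1 diet, such as 0.506 for Slc12a8 with NR and -0.604 for Bst1 without.

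Among the NAD hydrolases, Cd38 was measured well above background on all 24 arrays and was nearly level between the diets. Its log2 ratio had a lowest, median and highest value of -0.83, 0.01 and 0.29 in the Ctrl NR mice and of -0.24, -0.09 and 0.25 in the No NR mice. The Ctrl NR range contained the whole No NR range, and 1 mouse, Ctrl NR 64, lay apart at -0.83, while the other 11 Ctrl NR mice ran from -0.37 to 0.29. The difference, No NR minus Ctrl NR, was -0.01 (95% interval -0.22 to 0.20, limma adjusted p = 0.985), and it ran from -0.14 to 0.18 within the 5 slides. Without mouse 64 it was -0.08 (limma adjusted p = 0.681), and with array weights -0.12 (limma adjusted p = 0.43). Above the Ctrl NR median lay 3 of the 12 No NR mice. The SD was 0.33 among Ctrl NR mice (0.22 without mouse 64) and 0.17 among No NR mice (n = 12 each).

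Bst1, which lies directly before Cd38 on chromosome 5 in the RefSeq annotation, had one of the widest spreads among mice. The brighter of its 2 probes, A_51_P499838, gave a lowest, median and highest ratio of -0.86, -0.10 and 0.45 in the Ctrl NR mice. In the No NR mice these were -0.71, 0.14 and 0.60. The groups overlapped over most of their range, and 2 No NR mice lay above the highest Ctrl NR mouse. The means were -0.17 ± 0.44 with and 0.01 ± 0.44 without NR (SD, n = 12 each), a log2 fold change of 0.18 (SE 0.166, 95% interval -0.16 to 0.52, limma adjusted p = 0.654). The slides did not share a direction, with differences of -0.55, 0.30, -0.26, 0.43 and 0.56 on slides 1 to 5, where slide 1 held 1 No NR mouse. The within-diet SD of 0.44 was larger than that of 95% of the features, whose median was 0.199. With the macrophage list mean as a covariate in the fit, a choice made after seeing the data, the diet difference of this probe was -0.0029 (95% interval -0.15 to 0.15, limma adjusted p = 0.991). The dimmer probe, A_55_P2115401, exceeded background clearly for 8 mice fed NR and 7 mice without it, and gave 0.05 (95% interval -0.10 to 0.19, limma adjusted p = 0.793). With the authors' processed signals this probe gave 0.16 with a wider 95% interval, -0.42 to 0.75 (limma adjusted p = 0.797).

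Sarm1 could not be measured. Its single probe was well above background on 0 of 24 arrays in either channel, with raw Cy5 signals from 29.5 to 45.0 against a median local background of 34.0. No fold change is given for it. Among 10 genes of the SARM1 axon programme and the TIR adaptors, 8 were measured, 4 higher and 4 lower, with a median log2 fold change of 0.00, and 0 passed (lowest limma adjusted p 0.404). Tirap, an adaptor of Toll-like receptors, was at -0.14 (95% interval -0.30 to 0.01), and Fbxo45, part of a ubiquitin ligase of axons, at 0.11 (-0.10 to 0.33).

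Art3 encodes a member of the ecto-ADP-ribosyltransferase family, whose other members transfer ADP-ribose from NAD to surface proteins; whether ART3 itself does so is not settled. Both of its probes were well above background on all 24 arrays. Probe A_55_P2096827 had a lowest, median and highest ratio of -1.12, -0.15 and 0.38 in the Ctrl NR mice and of -0.99, -0.29 and 0.14 in the No NR mice. In each diet some mice lay more than 1 log2 unit below others, so that the mice within a diet differed far more than the diets. The log2 fold change was -0.08 (SE 0.171, 95% interval -0.44 to 0.27, limma adjusted p = 0.853), with within-slide differences from -0.71 to 0.62. Probe A_55_P2162573 gave 0.02 (95% interval -0.33 to 0.37, limma adjusted p = 0.97), with a mean of -0.22 ± 0.41 with and -0.20 ± 0.48 without NR (SD, n = 12 each). The within-diet SD was 0.456 and 0.45 for the 2 probes, larger than that of 95.6% and 95.3% of the features. With the macrophage list mean as a covariate the differences were 0.08 and 0.18 (limma adjusted p = 0.737 and 0.43). The gene overlaps Cxcl10 and Cxcl11 in the RefSeq annotation, and probe sequences were not used here.

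Of the promoter windows in the RefSeq table (300 bases, from 250 before the start site to 50 after), 10 belonged to 6 of the members; Bst1 and Nnmt are named only. They are shown for Art3 and Aox1, whose ratios varied with the adipocyte markers as described below, and for Slc12a8, which had the only other match. Matches are in capitals, on either strand, to 3 motifs chosen with the results known: TTGCNNAA (C/EBP factors), AGGTCA (the half-site of many nuclear receptors) and GAGGAA (the core bound by PU.1). The first of 3 Art3 windows, chr5:92331577-92331876 on the plus strand (GRCm38.p6), holds AGGTCA on the opposite strand at bases 180 to 185 and GAGGAA on the opposite strand at bases 240 to 245. The Slc12a8 window, the second of 3, is chr16:33517945-33518244 on the plus strand, with GAGGAA at bases 260 to 265, and the Aox1 window is chr1:58029719-58030018 on the plus strand.
Art3: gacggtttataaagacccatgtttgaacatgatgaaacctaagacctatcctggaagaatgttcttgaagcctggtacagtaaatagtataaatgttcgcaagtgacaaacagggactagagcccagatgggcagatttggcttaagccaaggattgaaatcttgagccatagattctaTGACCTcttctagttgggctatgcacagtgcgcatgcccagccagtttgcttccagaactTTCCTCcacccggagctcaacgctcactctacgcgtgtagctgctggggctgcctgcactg
Slc12a8: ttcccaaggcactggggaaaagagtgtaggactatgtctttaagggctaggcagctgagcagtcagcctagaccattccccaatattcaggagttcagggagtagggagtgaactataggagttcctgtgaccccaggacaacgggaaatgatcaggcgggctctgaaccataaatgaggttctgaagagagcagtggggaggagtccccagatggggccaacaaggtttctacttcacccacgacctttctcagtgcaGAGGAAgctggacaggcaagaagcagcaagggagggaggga
Aox1: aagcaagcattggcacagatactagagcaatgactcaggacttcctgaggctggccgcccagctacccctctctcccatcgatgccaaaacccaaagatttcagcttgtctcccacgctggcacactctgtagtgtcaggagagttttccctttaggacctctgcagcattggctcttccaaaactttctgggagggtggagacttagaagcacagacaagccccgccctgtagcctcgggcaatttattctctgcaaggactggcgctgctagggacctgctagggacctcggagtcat
The other 8 windows, that of Aox1 included, had none of the 3 motifs. Over 32851 windows of this length, 10.8% held TTGCNNAA, 16.3% held AGGTCA and 28.3% held GAGGAA. The matches describe letters and not bound sites.

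Nt5e was dim, clearly over background for 9 mice fed NR and 10 mice without it, and its spread rested on 1 mouse. The lowest, median and highest ratios were -0.65, -0.17 and 1.51 in the Ctrl NR mice and -0.57, -0.16 and 0.40 in the No NR mice. Mouse Ctrl NR 108 was at 1.51, and the other 11 Ctrl NR mice ran from -0.65 to 0.25, inside or close to the No NR range. The log2 fold change was -0.10 (SE 0.17, 95% interval -0.45 to 0.25, limma adjusted p = 0.822). Without that mouse it changed sign, to 0.05 (limma adjusted p = 0.873), and the Ctrl NR SD fell from 0.57 to 0.29. The same mouse had the highest mean of the mesothelial markers among the 24, at 0.91; the part of this in its Nt5e ratio was not tested.

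Slc12a8 was near the limit of measurement. Probe A_55_P2022890 was clearly over background for 8 mice fed NR and 6 mice without it, with a lowest, median and highest ratio of -0.28, 0.08 and 0.27 in the Ctrl NR mice. In the No NR mice these were -0.30, -0.02 and 0.14. The groups overlapped, with 3 of 12 No NR mice above the Ctrl NR median. The log2 fold change was -0.08 (SE 0.0639, 95% interval -0.21 to 0.05, limma adjusted p = 0.584), below 0 on 4 of 5 slides. Its within-diet SD of 0.147 was smaller than that of most features. The offset of 50 draws the ratios of so dim a probe towards 0, and its part in this SD was not tested. With the authors' processed signals the log2 fold change was -0.22, with an SE of 0.15 (95% interval -0.53 to 0.09, limma adjusted p = 0.465). The second probe, A_55_P2022895, was clearly over background for 4 mice fed NR and 5 mice without it and was not tested. Its means went the other way, from -0.08 with to -0.04 without NR, and 8 of 12 No NR mice lay above its Ctrl NR median.

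Nnmt, the methyltransferase that commits nicotinamide to clearance, was well above background on every array and did not pass the test. Its lowest, median and highest ratios were -0.52, -0.17 and 0.21 in the Ctrl NR mice and -0.97, -0.06 and 0.24 in the No NR mice. The ranges overlapped almost fully apart from mouse No NR 101 at -0.97; the other 11 No NR mice ran from -0.48 to 0.24. The means were -0.16 ± 0.23 and -0.14 ± 0.35 (SD, n = 12 each), a log2 fold change of 0.02 (95% interval -0.22 to 0.25, limma adjusted p = 0.96), and within slides the difference ran from -0.16 to 0.36.

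Aox1, the oxidase downstream of NNMT, had the lowest p of the set, and it did not pass the adjusted test. The lowest, median and highest ratios were -0.55, -0.22 and 0.18 in the Ctrl NR mice and -0.32, -0.05 and 0.53 in the No NR mice. Of the 12 No NR mice, 10 lay above the Ctrl NR median and 2, No NR 78 and No NR 118, above the highest Ctrl NR mouse. The log2 fold change was 0.20, or 1.15-fold (SE 0.097, unadjusted limma p = 0.0487, limma adjusted p = 0.352). By the size of this difference, regardless of sign, the probe exceeded 87.2% of the features. It was above 0 on each of the 5 slides, at 0.74, 0.01, 0.22, 0.33 and 0.06. Slide 1 held 1 No NR mouse, No NR 118, and 2 Ctrl NR mice. With slide as a block the diet difference was 0.23 (95% interval 0.01 to 0.44, limma adjusted p = 0.353). With the macrophage list mean as a covariate, added after seeing the data, it was 0.27 (SE 0.0779, 95% interval 0.11 to 0.43, limma adjusted p = 0.106). With the arrays centred on their median in place of loess it was 0.06 (95% interval -0.44 to 0.55, limma adjusted p = 1). The adjusted p over the 40 alternative settings ran from 0.106 to 1. The estimate for Aox1 was the largest in size of the 7 genes in the main fit and, ties at 2 decimals included, in 30 of the 40 alternatives, while Bst1 was larger in 8 (0.23 against 0.15 with array weights), Slc12a8 in 1 (-0.22 against 0.17 with the authors' processed signals) and Art3 in 1 (-0.22 against 0.06 with median centring). The 40 are not separate checks: 24 leave out 1 mouse each, and several others, such as the probe filters, cannot change these estimates.

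**Figure D2:**
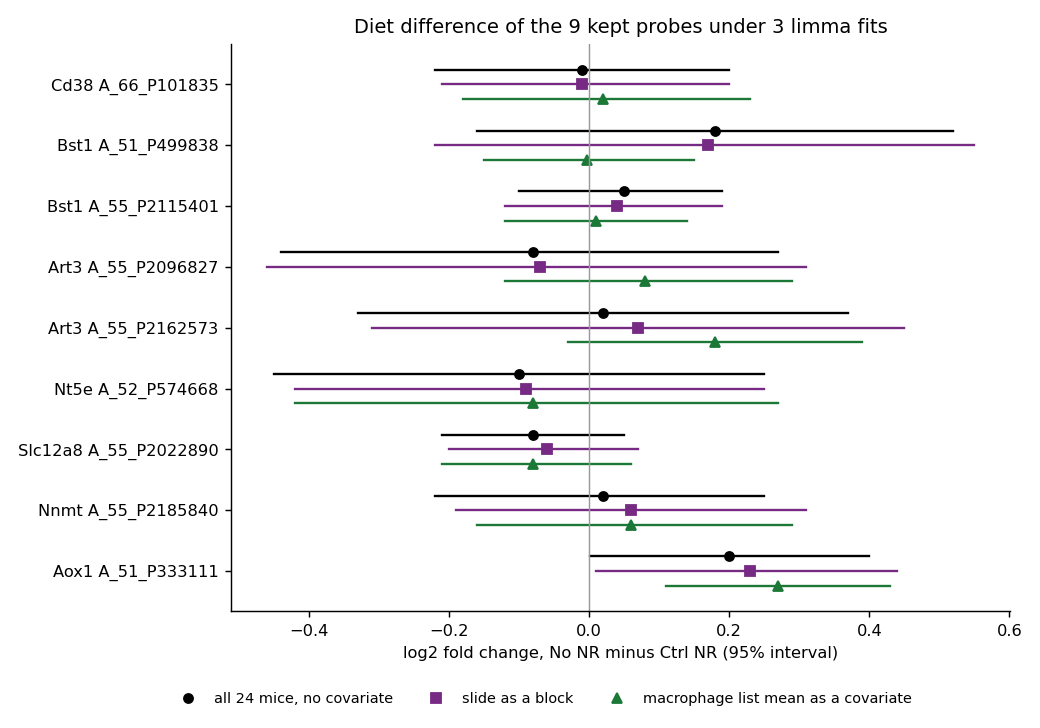
The plot shows the log2 fold change, No NR minus Ctrl NR, with its 95% interval (horizontal axis), for the 9 kept probes under 3 limma fits: all 24 mice with no covariate (circles), slide as a block (squares) and the macrophage list mean as a covariate (triangles). The intervals of Aox1 lie above 0, while those of the other 8 probes include 0; no probe passes after adjustment, and for Bst1 A_51_P499838 and Art3 A_55_P2096827 the covariate narrows the interval and moves the estimate from 0.18 to -0.0029 and from -0.08 to 0.08.

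Mouse-to-mouse variation in several members followed the mean of marker lists for cell types of fat. For each of the 7 measured genes, Pearson r and Spearman rho were computed over the 24 mice with 5 list means, with 2 array measures and with the other members, 70 relations in all, with two-sided permutation tests (100000 resamples) and Benjamini-Hochberg adjustment over the 70. Of these, 12 passed by r, 15 by rho and 11 by both. The share of all measured genes that would pass with the same lists was not computed. These counts therefore do not show that the members differ from other genes. The lists are correlated with one another, so the relations of a gene to several lists are not separate observations.

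Bst1 followed the macrophage list closely, with r = 0.929 and rho = 0.92 (permutation test, adjusted p = 0.000117 for both). The relation was present in each diet (r = 0.937 with NR and 0.921 without), after removal of slide means (r = 0.944) and when the 2 mice at the greatest distance from the list's median were left out (r = 0.938). Its r with the stromal progenitor list was 0.802 (rho 0.819, permutation test, adjusted p = 0.000117). Bst1 ran against the adipocyte list (r = -0.889, rho -0.88) and the endothelial list (r = -0.750, rho -0.762) with loess, while with median centring both signs turned, to 0.496 and 0.653. The 2 mice highest for Bst1 were No NR 81 at 0.60 and No NR 94 at 0.52, with macrophage list means of 0.77 and 0.60. The 2 lowest were Ctrl NR 95 at -0.86 and Ctrl NR 75 at -0.73, with list means of -1.22 and -1.08. Cd38, the paralog next to it, had r = -0.248 with the macrophage list (permutation test, adjusted p = 0.484), which turned to 0.612 with median centring, and r = -0.174 with Bst1 itself (permutation test, adjusted p = 0.62). The difference between these correlations was not tested.

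Art3 showed the opposite pattern with loess: r = -0.833 with the macrophage list (rho -0.838, permutation test, adjusted p = 0.000117), a sign that turned to 0.274 with median centring. It followed the adipocyte list, with r = 0.818 and rho = 0.823 (permutation test, adjusted p = 0.000117). With median centring this r was 0.912. Under that setting Bst1 also turned positive with the adipocyte list (r = 0.496), so that a positive sign there is no check. The r of Art3 with the adipocyte list was 0.928 with NR and 0.686 without, 0.89 with slide means removed and 0.777 without the 2 farthest mice. Its r was 0.636 with the endothelial list (permutation test, adjusted p = 0.00757) and -0.718 with the stromal progenitor list (permutation test, adjusted p = 0.000787), the latter 0.547 with median centring. Bst1 and Art3 were the 1 pair of the 21 pairs of members that passed, with r = -0.833 and rho = -0.843 (permutation test, adjusted p = 0.000117; -0.888 in Ctrl NR, -0.78 in No NR, -0.85 with slide means removed, -0.854 without the 2 farthest mice), and with median centring their r was 0.349.

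**Figure D3:**
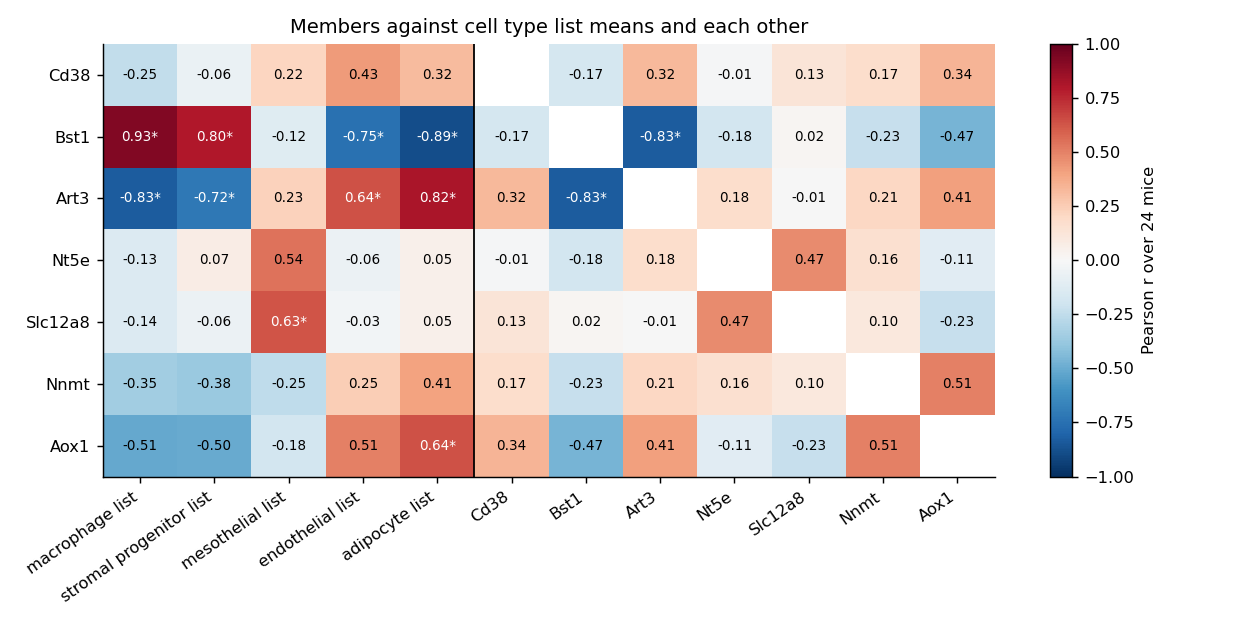
The heat map gives Pearson r over 24 mice between the 7 measured members (rows) and 5 cell type list means and the members themselves (columns), on a colour scale from -1 to 1, with an asterisk where both r and rho passed the adjusted permutation test. Bst1 and Art3 have mirrored rows, from 0.93 and -0.83 with the macrophage list to -0.89 and 0.82 with the adipocyte list; with median centring in place of loess the signs of Bst1 with the adipocyte and endothelial lists, of Art3 with the macrophage and stromal progenitor lists, and of the pair turn.

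Aox1 also followed the adipocyte list, with r = 0.638 and rho = 0.64 (permutation test, adjusted p = 0.00513 and 0.00719). Within the diets r was 0.695 with NR and 0.814 without, and with slide means removed it was 0.616, which did not pass (permutation test, adjusted p = 0.0571). Its r with the macrophage list was -0.511 (permutation test, adjusted p = 0.0548), and rho was -0.546 (adjusted p = 0.0372). With diet means subtracted this r was -0.667 (permutation test, adjusted p = 0.00187), it was -0.546 among mice fed NR and -0.817 among those without, and with median centring it was 0.626. By rho alone Aox1 also passed with the endothelial list (rho 0.521, permutation test, adjusted p = 0.0477; r = 0.505, adjusted p = 0.0564) and the stromal progenitor list (rho -0.537, permutation test, adjusted p = 0.0383; r = -0.503, adjusted p = 0.0564). With diet means subtracted these r were 0.713 and -0.715 (permutation test, adjusted p = 0.000612 and 0.0007). With slide means removed they were 0.53 and -0.475 (permutation test, adjusted p = 0.127 and 0.253). The mean of the macrophage list was -0.15 ± 0.75 with and 0.15 ± 0.62 without NR (SD, n = 12 each), a difference in list means that was not tested. Nnmt, the enzyme before it, had r = 0.505 with Aox1 (permutation test, adjusted p = 0.0564) and r = 0.406 with the adipocyte list, neither past the threshold.

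**Figure D4:**
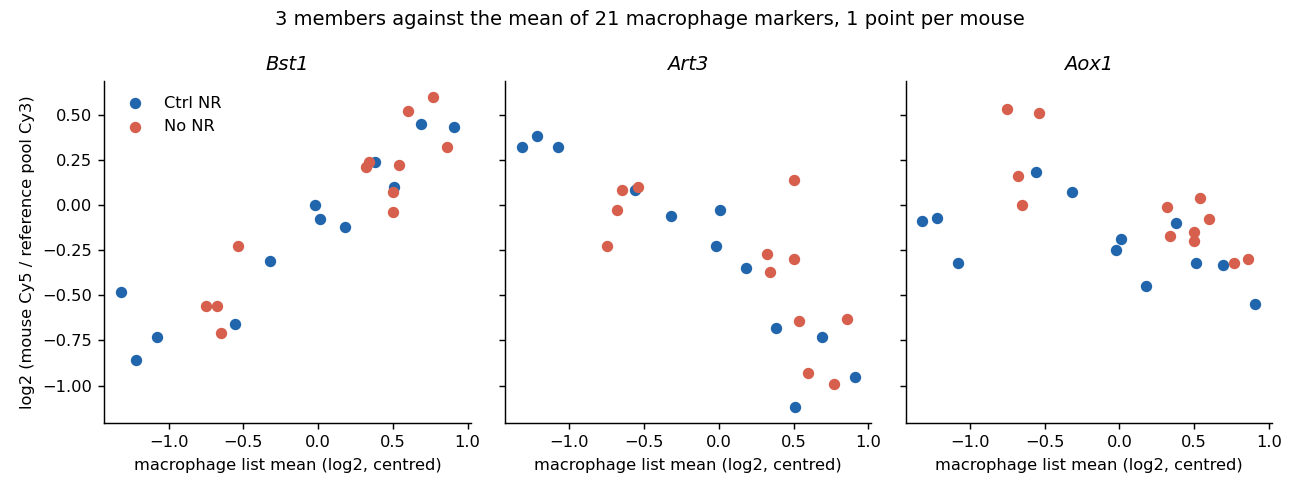
The scatter plots set the log2 ratio of Bst1, Art3 and Aox1 (vertical axis) against the mean of 21 macrophage markers (log2, centred per gene, horizontal axis), with 1 point per mouse coloured by diet. Bst1 rises with the list (r = 0.929), Art3 falls (r = -0.833, but 0.274 with median centring) and Aox1 has an r of -0.511 (0.626 with median centring) that did not pass.

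Slc12a8 and Nt5e went with the mesothelial markers, genes of the cell sheet that covers the fat pad. Slc12a8 had r = 0.63 and rho = 0.608 (permutation test, adjusted p = 0.00728 and 0.0115), 0.759 with NR and 0.369 without, and 0.588 with slide means removed. Without the 2 farthest mice r was 0.486 (permutation test, adjusted p = 0.0852), so that the call, though not most of the correlation, depends on those mice. The call was also lost with the authors' processed signals (r = 0.398, permutation test, adjusted p = 0.145) and with Cy5 alone (r = 0.498, permutation test, adjusted p = 0.0541). Nt5e had r = 0.542 (permutation test, adjusted p = 0.0258) but rho = 0.417 (adjusted p = 0.147), within-diet values of 0.569 and 0.44, 0.521 with slide means removed (adjusted p = 0.104), and 0.329 without the 2 farthest mice (adjusted p = 0.267). The call and part of the correlation depend on those mice, and with the authors' processed signals r was 0.425 (permutation test, adjusted p = 0.103). Cd38 passed with the endothelial list by rho alone (rho 0.644, permutation test, adjusted p = 0.00719; r = 0.427, adjusted p = 0.125).

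As a description with no test, the 5 named genes whose ratios were most like each member were taken by Pearson r over the 24 mice after diet means were subtracted, among 12377 genes. For Bst1 these were Irf8, a transcription factor of myeloid cells, at 0.952, the complement gene C1qa at 0.945, Fam111a at 0.945, the leukocyte actin-bundling gene Lcp1 at 0.944 and Ms4a6d at 0.944. C1qa is also 1 of the macrophage markers. For Art3 they were Bche, butyrylcholinesterase, at 0.932, the peroxisomal Pex11a at 0.925, the amine oxidase gene Aoc3 at 0.9, the Wnt pathway inhibitor Axin2 at 0.899 and Cpeb3 at 0.897. For Aox1 they were Gde1 at 0.848, the glucose transporter trafficking gene Trarg1 at 0.845, Eci1, an isomerase of fatty acid oxidation, at 0.839, the mitochondrial Tspo at 0.837 and Chpt1, which makes phosphatidylcholine, at 0.836.

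For Nnmt the closest genes were Kmt5a, a histone methyltransferase, at 0.871, Dlst of the citric acid cycle at 0.864, Dgat1 of triglyceride synthesis at 0.836, Ppm1a at 0.83 and Mrpl30 at 0.822. For Cd38 they were Ghitm at 0.847, Aspn, a matrix proteoglycan, at 0.840, Zdhhc17 at 0.836, Mbnl2 at 0.818 and Blcap at 0.817. Without the 2 mice farthest from the median of Cd38 these 5 values lay between 0.596 and 0.691. For Nt5e they were Inhba, a subunit of activin, at 0.880, Perp at 0.876, Wnk2 at 0.867, Kcnd3 at 0.859 and Cfap69 at 0.846, and without its 2 farthest mice between 0.485 and 0.629. For Slc12a8 they were Fgf1, a growth factor, at 0.771, Clic3 at 0.747, Cldn10 at 0.696, Serp1 at 0.694 and Sulf1 at 0.688, and without its 2 farthest mice between 0.6 and 0.758. With the authors' processed signals these 5 values were lower, from 0.429 to 0.547.

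Where a gene had 2 probes, they did not always give the same order of mice. The Art3 probes had r = 0.736 (rho 0.703) over 24 mice, and mouse No NR 114 was highest of its diet on one at 0.14 but at -0.66 on the other. The Bst1 probes had r = 0.439 (rho 0.349), with the dimmer probe spanning -0.45 to 0.21 and the brighter -0.86 to 0.60. The Slc12a8 probes had r = -0.122 (rho -0.176), both close to background. These values describe probe pairs and carry no test.

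**Figure D5:**
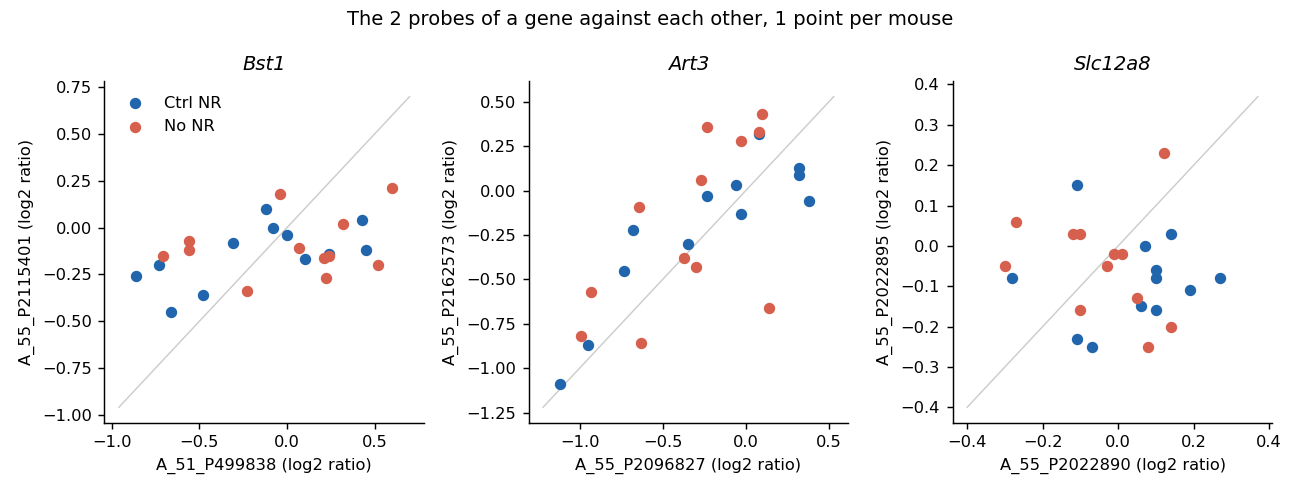
Each panel sets the log2 ratio on the first probe of a gene (horizontal axis) against that on its second probe (vertical axis), with 1 point per mouse coloured by diet and a grey line where the probes would be equal. The Art3 points lie along the line (r = 0.736), the Bst1 points are flatter than it (r = 0.439) and the Slc12a8 points show no slope along it (r = -0.122).

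The genes around the members were counted in lists chosen with earlier results known, and in the 8 lists 0 genes passed the limma adjusted threshold, where 0% of all probes did. At an unadjusted limma p under 0.05 there were 7 of the 79 measured genes (8.86%), beside 14% of all kept probes. Of 10 measured genes of NAD synthesis and salvage, 3 were higher and 7 lower (median log2 fold change -0.02), led by Nmnat1, an NAD-forming adenylyltransferase of the nucleus, at -0.09 (95% interval -0.22 to 0.04, limma adjusted p = 0.546). Qprt, which makes NAD precursors from tryptophan, was at 0.09 (-0.08 to 0.27). Of 10 genes handling ADP-ribose, cyclic ADP-ribose and NAADP, the products of CD38 and BST1, 3 were higher and 7 lower (median -0.04). Macrod1, a hydrolase that removes ADP-ribose from proteins, was at -0.23 (-0.40 to -0.06, limma adjusted p = 0.219), and the lysosomal channel gene Tpcn1 at 0.09 (-0.10 to 0.28). Art4 was the 1 measured gene of the other ecto-ADP-ribosyltransferases, at -0.02 (-0.44 to 0.39).

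Of 15 genes of extracellular nucleotide and adenosine handling, the setting of NT5E, 8 were higher and 7 lower (median 0.03). The adenosine receptor gene Adora2a was at -0.22 (-0.41 to -0.03, limma adjusted p = 0.273) and the phosphatase gene Alpl at -0.22 (-0.41 to -0.02, limma adjusted p = 0.297). Of 17 genes of the methyl donor cycle and polyamines, which supplies the methyl group NNMT uses, 6 were higher and 11 lower (median -0.04). Odc1, the first enzyme of polyamine synthesis, was at -0.21 (-0.36 to -0.06, limma adjusted p = 0.199), and Ahcyl1, a relative of S-adenosylhomocysteine hydrolase, at 0.23 (0.03 to 0.42, limma adjusted p = 0.283). Of 9 genes of the molybdenum enzymes and their cofactor, which AOX1 needs, 4 were higher and 5 lower (median -0.04). Mocs3, of cofactor synthesis, was at -0.22 (-0.41 to -0.03, limma adjusted p = 0.279), and Gphn, which inserts the molybdenum, at -0.20 (-0.44 to 0.04). Of 9 cation-chloride cotransporters and their kinases, the family of SLC12A8, 3 were higher and 6 lower (median -0.10), led by Slc12a9 at -0.13 (-0.27 to 0.01) and the kinase gene Oxsr1 at 0.19 (-0.01 to 0.38, limma adjusted p = 0.384).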

How the data were processed

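Fat RNA of 24 mice was measured on Agilent 2-colour arrays (62976 spots, 1 array per mouse). Per the submitters' processing notes, scans were read with Agilent Feature Extraction 10.7.3.1. The deposited scanner files hold the spot and local background intensity of each channel, with flags for outlier, saturated and well-above-background spots, per the file headers; spot medians were used. Signals were background corrected (limma 3.58.1 in R 4.3.3, normexp, offset 50) and each array was loess normalized, control spots carrying weight 0, which gave log2 ratios. The deposited value table, whose log2 scale and centring the sources used here do not state, had a column median of 8.04 on every array, correlated at 0.99 or more with the log2 Cy5 signal of its own array, and served as an alternative. Spots of a probe were averaged to 55681 probes, of which 27235 have 1 gene symbol through the RefSeq table and 28446 none. Groups came from the labels' diets; each sample is a separate mouse. limma was fitted on all kept probes, No NR minus Ctrl NR, with no covariate, and p-values adjusted by Benjamini-Hochberg. A gene with several probes is represented by the brightest kept one. Named genes are all members, the 5 genes most like each, and the 2 lowest p of each list. Members, lists, tests and alternatives were chosen with earlier results of these data known. Correlations used scipy 1.17.1. The fit was also run on shuffled residuals of these arrays with known shifts added, all larger than the members' differences, so that run does not cover differences of their size. Precision is limited by the number of arrays. The array annotation follows mm9, per the file headers; promoters are from RefSeq, GRCm38.p6. Alternatives changed the background correction, normalization, channel, filter, slide term, probe choice, variance model and mice.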

Additional observations from a re-analysis of the deposited data

How the results depend on the processing

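No paired analysis was possible because the diets share no animal number. No member probe passed the adjusted threshold in any of up to 40 alternative fits of its diet difference, 24 of which leave out 1 mouse each. Aox1 and the tested Slc12a8 probe kept their direction in all of theirs, from 0.06 to 0.27 and from -0.22 to -0.04. The untested Slc12a8 probe had means in the opposite direction. Other members changed sign. Cd38 was at 0.02 with no background subtraction, 0.01 in the deposited value table and 0.02 with the macrophage list as a covariate. With that covariate Bst1 was at -0.0029 and Art3 at 0.08. With median centring Nnmt was at -0.13 and the other Art3 probe at -0.12; array weights gave that probe -0.06, and the value table gave the other Bst1 probe -0.07. Leaving out 1 mouse moved Cd38 between -0.08 and 0.02, the other Art3 probe between -0.06 and 0.08, Nt5e between -0.15 and 0.05 and Nnmt between -0.02 and 0.09. Loess followed by Aquantile leaves ratios as they are by construction. The probe filters, the choice of the brightest probe and the intensity trend likewise leave the members' fold changes as they are, so that sameness there is no check.

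Over all probes, 0 passed with the main settings, 239 with array weights and 75 with the macrophage covariate. Leaving out 1 mouse gave 0 to 271, above 0 in 7 of 24 fits: 271 without Ctrl NR 117, 257 without 68, 105 without 104, 42 without 77 and 6 without 75, and 3 and 2 without No NR 78 and 118. With median centring the probes at an unadjusted limma p under 0.05 fell from 3479 to 302 over the whole array, and the list genes from 7 to 0.

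Of the 70 relations, 12 passed by r, and between 11 and 19 did under the alternatives other than median centring, where 42 did: 19 with the authors' processed signals and 19 in the value table. With only probes above background on all 24 arrays, Nt5e and Slc12a8 dropped out. The 14 that passed there are therefore out of fewer than 70 relations. With median centring r with the macrophage list was 0.612 for Cd38, 0.274 for Art3, 0.264 for Nt5e, 0.197 for Slc12a8, 0.641 for Nnmt and 0.626 for Aox1; Bst1 had 0.496 with the adipocyte and 0.653 with the endothelial list, Art3 had 0.547 with the stromal progenitor list, and the pair 0.349. Slc12a8 with the macrophage list was at 0.0746 with the processed signals. Aox1 passed with the macrophage list at -0.524 with no background subtraction, -0.568 with processed signals, -0.595 with Cy5 alone, -0.543 in the value table, -0.512 with probes above background on all arrays, -0.518 with probe means, -0.667 with diet means subtracted and -0.601 without the 2 farthest mice. The -0.512 was adjusted over fewer relations, and r in the main setting, which did not pass, was -0.511. The cause of these changes was not tested. The 35 most-alike gene pairs were chosen for their high r in these data. That 0 of 245 values under other settings changed sign is therefore no check, and Aquantile repeats the main values. Sizes did change, as for Slc12a8 and Fgf1, from 0.771 to 0.471 with the processed signals. Signal near background limits Sarm1, Slc12a8, Nt5e and the dimmer Bst1 probe.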
